A study of Mus musculus with 59 samples.

Results

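The genes examined were Mmrn2, Egfl7, Ccm2l, Ushbp1 and Lyve1, 5 of the 37163 genes or transcripts on the arrays, chosen by the dose differences of their log2 ratios in lung, liver or forestomach. All probes assigned to them by accession were taken, 8 of 55681 probes: 3 for Ccm2l, 2 for Ushbp1 and 1 for each of the others. The arrays came from adult male Muta™Mouse, a transgenic strain built for mutation assays, about 16 weeks old. Mice received benzo(b)fluoranthene (BbF), a polycyclic aromatic hydrocarbon, in olive oil by oral gavage for 28 days at 25 (low), 50 (medium) or 100 (high) mg/kg-bw/day, or olive oil alone (vehicle, 0), and tissues were taken 72 h after the last dose. The groups held 5 mice each, apart from low-dose lung with 4, which gave 19 lung, 20 liver and 20 forestomach arrays. Mice 1 to 5 were vehicle, 6 to 10 low, 11 to 15 medium and 16 to 20 high, and each gave its 3 tissues, apart from low-dose mouse 7 with no lung array here. The compound is called BbF after the titles and the protocol, although benz(a)anthracene stands in the exposure labels of the dosed mice and in the series design.

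Endothelial cells line blood and lymphatic vessels and are identified by junction proteins such as Pecam1 and Cdh5, surface receptors and secreted matrix proteins. Mmrn2 (multimerin 2) is an endothelial glycoprotein of the extracellular matrix that binds the receptors Clec14a and Cd93. Egfl7 is a secreted factor that endothelial cells deposit in the matrix around growing vessels, and its gene hosts a microRNA known for its role in endothelium. Ccm2l is an intracellular adaptor related to Ccm2, which acts with Krit1 and Heg1 at endothelial junctions. Ushbp1 is an intracellular protein that binds the scaffold protein Ush1c. Lyve1 is a hyaluronan receptor known from lymphatic endothelium, liver sinusoidal endothelium and some tissue macrophages.

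Promoter windows of 300 bases around a transcription start were at hand in RefSeq (build GRCm38.p6) for 2 of the 5 genes, Egfl7 with 3 start sites and Ushbp1 with 1. They are shown because the ligand of the aryl hydrocarbon receptor (AhR) given here and the endothelial expression of these genes raise the question of which letters their promoters hold. Capitals mark the ETS core AGGAAG, bound by a family of factors prominent in endothelium, and the AhR core GCGTG, each on either strand. Egfl7 window 2 lies at chr2:26583615-26583914, window 3 at chr2:26586386-26586685, both on the plus strand, and the Ushbp1 window at chr8:71395752-71396051 on the minus strand.
Egfl7 window 2: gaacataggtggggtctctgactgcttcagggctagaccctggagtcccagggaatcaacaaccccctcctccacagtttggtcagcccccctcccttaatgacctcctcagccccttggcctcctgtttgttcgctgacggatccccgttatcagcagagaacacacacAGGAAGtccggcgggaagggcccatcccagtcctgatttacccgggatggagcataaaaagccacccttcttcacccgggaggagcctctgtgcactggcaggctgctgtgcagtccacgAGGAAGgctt
Egfl7 window 3: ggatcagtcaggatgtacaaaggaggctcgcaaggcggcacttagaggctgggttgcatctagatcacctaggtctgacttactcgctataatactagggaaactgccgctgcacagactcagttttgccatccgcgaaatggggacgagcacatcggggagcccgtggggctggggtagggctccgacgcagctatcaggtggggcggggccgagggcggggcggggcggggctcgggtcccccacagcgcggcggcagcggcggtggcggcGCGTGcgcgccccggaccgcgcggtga
Ushbp1: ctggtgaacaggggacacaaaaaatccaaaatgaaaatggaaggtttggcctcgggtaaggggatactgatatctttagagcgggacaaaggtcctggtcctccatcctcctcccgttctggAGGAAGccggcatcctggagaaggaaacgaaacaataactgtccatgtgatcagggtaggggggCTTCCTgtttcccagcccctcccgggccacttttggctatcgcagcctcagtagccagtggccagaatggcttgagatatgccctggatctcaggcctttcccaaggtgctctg
The ETS core occurred 2 times in Egfl7 window 2, 2 times in that of Ushbp1, and 3 times in Egfl7 window 1 (chr2:26580833-26581132, plus strand, not shown). It occurs in 35.4% of all 32851 windows of this length. The AhR core was found 1 time, in Egfl7 window 3, and occurs in 32.4% of all windows. The E-box CACGTG (7.15% of windows) and the consensus p53 half-site (8.36%) were in none of the 4 windows. None of the motifs overlapped another in these windows.

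Each value below is log2(Cy5/Cy3), the signal of the tissue RNA (Cy5) over that of a universal mouse reference RNA (Cy3, a pool from cell lines) on the same array, so a difference of 1 is a 2-fold difference. For Ccm2l and Ushbp1 the brightest probe is given unless stated. Of 14 tissue identity genes, 13 were higher in every array of their own tissue than in any other array, with 1 array left out for Alb and for Apoa2, and Krt4, a forestomach keratin, overlapped with another tissue. The lung array of low-dose mouse 6 stood apart from the other lung arrays: the mean log2 ratio over the 6 forestomach identity genes was 4.19, with 6 of 6 well above background, against -0.45 to 0.15 on the other 18. The mean over the 4 liver identity genes ran from 0.38 to 4.72 in forestomach, highest in medium-dose mouse 12. The part of these tissue genes in the members' values was not tested, and low-dose lung differences are given with and without mouse 6. The arrays lay on 3 slides per tissue, and each slide held 1 tissue. On 1 liver slide, 11.1% to 13.5% of spots were well above background in Cy5, against 38.5% to 47.4% on the other 12 liver arrays, 46.2% to 54% on 18 of the 19 lung arrays and 41% to 53.3% in forestomach. The lung array of medium-dose mouse 13 stood apart at 69.5%, so medium-dose lung differences are also given without it. This low-signal slide held 8 arrays (1 vehicle mouse, 2 low-dose, 2 medium-dose and 3 high-dose mice), and liver values are therefore given with and without it. In whole tissue, the number of endothelial cells and the RNA per cell cannot be told apart, whether a value is higher or lower. The dose differences of these genes chose them, so they are described with the standard error of the fit and without a test.

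**Figure D1:**
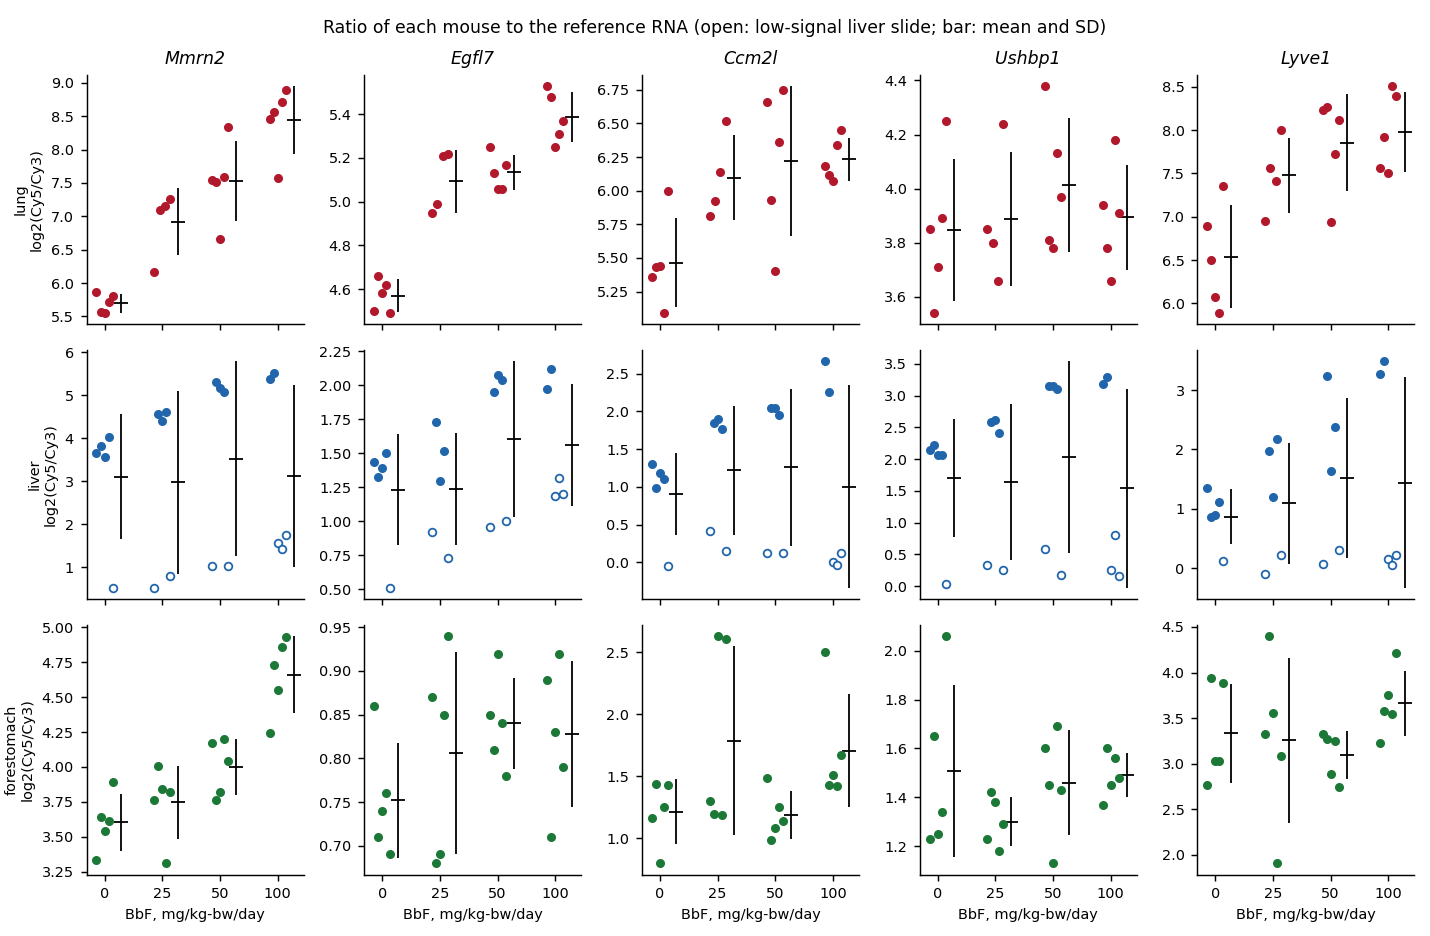
Log2(Cy5/Cy3) (vertical axis) of the 5 genes in every mouse of lung, liver and forestomach by BbF dose (horizontal axis, doses evenly spaced), with group mean and SD beside the points. In lung, the high-dose mice lie at 7.58 or more for Mmrn2 and all vehicle mice at 5.86 or less, and in liver the open points of the low-signal slide lie below the filled ones at the same dose.

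In lung, the matrix protein Mmrn2 had the largest dose difference of the 5 genes. Its values were 5.86, 5.56, 5.55, 5.71 and 5.80 in vehicle mice 1 to 5, 6.17, 7.09, 7.15 and 7.26 in low-dose mice 6, 8, 9 and 10, 7.54, 7.52, 6.66, 7.59 and 8.34 in medium-dose mice 11 to 15, and 8.46, 8.56, 7.58, 8.72 and 8.90 in high-dose mice 16 to 20. Every dosed mouse lay above every vehicle mouse, while neighbouring dose groups overlapped. The mean rose from 5.70 ± 0.14 (SD, n = 5) in vehicle mice to 8.44 ± 0.51 (n = 5) at the high dose. The difference from vehicle was 1.22 ± 0.27 (SE) for low, 1.83 ± 0.26 for medium and 2.75 ± 0.26 for high dose, the last a 6.72-fold increase. Within slides, the high-dose difference was 3.01, 1.95 and 2.80, and 2.63 with the slide as a block. The lowest high-dose value belonged to mouse 18 and the lowest medium-dose value to mouse 13, both on the slide with the difference of 1.95. Without low-dose mouse 6, whose array held the forestomach genes and gave the lowest low-dose value, the low-dose difference was 1.47 ± 0.27, and without medium-dose mouse 13 the medium-dose difference was 2.05 ± 0.24.

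Egfl7, also secreted into the matrix, moved less but with little spread among mice. Its values were 4.50, 4.66, 4.58, 4.62 and 4.49 with vehicle, 4.95, 4.99, 5.21 and 5.22 in low-dose mice, 5.25, 5.13, 5.06, 5.06 and 5.17 in medium-dose mice, and 5.53, 5.48, 5.25, 5.31 and 5.37 in high-dose mice. No dosed mouse overlapped with a vehicle mouse, and the low and medium doses covered nearly the same range. The difference from vehicle was 0.52 ± 0.08 (SE), 0.56 ± 0.07 and 0.82 ± 0.07 at the 3 doses, or 1.44, 1.48 and 1.76-fold. On a log2 scale centred on each array's median in place of loess the high-dose difference was 1.19, and in the Cy5 channel alone it was 1.05. The low-dose difference was 0.57 without mouse 6 and the medium-dose difference 0.58 without mouse 13.

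The hyaluronan receptor Lyve1 was raised with more spread among mice. Its values were 6.89, 6.50, 6.07, 5.89 and 7.35 with vehicle, 6.95, 7.56, 7.41 and 8.00 in low-dose mice, 8.23, 8.27, 6.94, 7.72 and 8.12 in medium-dose mice, and 7.56, 7.92, 7.50, 8.51 and 8.39 in high-dose mice. Vehicle and high-dose mice did not overlap, whereas low-dose mouse 6 and medium-dose mouse 13 lay below vehicle mouse 5. The high-dose difference was 1.43 ± 0.29 (SE), 2.70-fold, and 1.10, 1.52 and 1.04 within slides. The low-dose difference was 0.94 with and 1.11 without mouse 6, and the medium-dose difference 1.31 with and 1.54 without mouse 13. With the slide as a block, the low, medium and high-dose differences were 0.95, 1.03 and 1.25.

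Ccm2l, the adaptor related to Ccm2, was raised to a similar level at each dose. Its brightest probe gave 5.36, 5.43, 5.44, 5.09 and 6.00 with vehicle, 5.81, 5.92, 6.14 and 6.52 in low-dose mice, 6.66, 5.93, 5.40, 6.36 and 6.75 in medium-dose mice, and 6.18, 6.12, 6.07, 6.34 and 6.45 in high-dose mice. Vehicle mouse 5 stood above the other vehicle mice and within the low and medium ranges, but below every high-dose mouse. The high-dose difference was 0.77 ± 0.21 (SE) with this probe, 0.78 ± 0.20 with probe 2 and 0.98 ± 0.15 with probe 3, and on each probe the high-dose mice were above the vehicle range. With the brightest probe the low-dose difference was 0.64, or 0.73 without mouse 6. The medium-dose difference was 0.76, or 0.96 without mouse 13, where it passed the thresholds used below. Mouse 13 was the only medium-dose mouse on its slide. With the slide as a block, the low, medium and high-dose differences of this probe were 0.62, 0.52 and 0.635, and the medium-dose value was under 1.5-fold.

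The brightest probe of Ushbp1 showed no separation between high dose and vehicle in lung. It gave 3.85, 3.54, 3.71, 3.89 and 4.25 in vehicle mice and 3.94, 3.78, 3.66, 4.18 and 3.91 at the high dose. The high-dose mice lay within the vehicle range, and the difference was 0.05 ± 0.14 (SE). Probe 2 gave 2.75, 2.75, 2.45, 2.08 and 2.75 in vehicle mice, 2.88, 2.83, 3.18 and 3.01 in low-dose mice, 3.00, 2.84, 2.34, 3.49 and 3.71 in medium-dose mice, and 2.69, 2.74, 2.80, 2.94 and 2.98 in high-dose mice. On that probe all 4 low-dose, 4 of 5 medium-dose and 3 of 5 high-dose mice were above the vehicle range, with differences of 0.42 ± 0.20, 0.52 ± 0.19 and 0.27 ± 0.19. With median centring the difference of the brightest probe was 0.41, and in the Cy5 channel alone it was 0.36.

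At the low dose Mmrn2 alone of the 5 passed, beside 0.422% of genes rising and 0.0269% falling, and at the medium dose Mmrn2, Lyve1 and Ccm2l (probes 2 and 3) passed, beside 0.49% rising and 0.148% falling. At the high dose, 1.36% of all genes passed an adjusted p of 0.05 or less (limma, Benjamini-Hochberg over all probes) with a rise of 1.5-fold or more in lung, and 4 of the 5 genes were among them. In 4.26% of genes no high-dose mouse reached down to the vehicle range, which held for the brightest probe of these 4 genes. The share was 2.64% at the low dose, where it held for Mmrn2 and Egfl7, and 2.14% at the medium dose, where it held for the same pair. Since these contrasts chose the genes, nothing is read from these counts. Over all genes 507 passed up and 210 down in lung, whereas median centring of each array gave 3174 up and 34 down.

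In liver, the brightest probe of all 5 genes was higher with dose on the 12 arrays outside the low-signal slide. Mmrn2 was 3.65, 3.81, 3.56 and 4.02 in vehicle mice 1 to 4, 4.56, 4.41 and 4.60 in low-dose mice 7 to 9, 5.30, 5.17 and 5.08 in medium-dose mice 12 to 14, and 5.37 and 5.51 in high-dose mice 16 and 17. The 4 groups did not overlap, and the share of all genes for which this held was not counted. The high-dose difference was 1.67 ± 0.12 (SE), 3.19-fold.

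Lyve1, a marker of the sinusoids in liver, had the largest difference of the 5 genes on these 12 arrays. Its values were 1.35, 0.87, 0.89 and 1.12 with vehicle, 1.98, 1.20 and 2.18 in low-dose mice, 3.24, 1.64 and 2.37 in medium-dose mice, and 3.27 and 3.49 in high-dose mice. The high-dose mice lay above all others, and low-dose mouse 8 lay within the vehicle range. The high-dose difference was 2.32 ± 0.32 (SE), 5.00-fold. Of 12 other sinusoidal genes none passed at the high dose on these arrays, beside 0.883% of all genes rising, and their median difference was 0.19.

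Ushbp1, by its brightest probe, went from a mean of 2.13 in vehicle mice to 2.54, 3.13 and 3.24 at the 3 doses on these arrays, a high-dose difference of 1.12 ± 0.09 (SE). No dose group overlapped with vehicle, from 2.06 to 2.22 in vehicle mice to 3.18 and 3.30 at the high dose. Ccm2l went from 1.14 to 1.84, 2.02 and 2.46, a difference of 1.32 ± 0.12, with vehicle mice at 0.98 to 1.30 and high-dose mice at 2.67 and 2.26. Egfl7 went from 1.42 to 1.52, 2.02 and 2.05, a difference of 0.63 ± 0.11, and only its low-dose mice overlapped with vehicle mice. The other probes of Ushbp1 and Ccm2l gave less: the second Ushbp1 probe gave 0.17 ± 0.16, and Ccm2l probes 2 and 3 gave 0.24 ± 0.14 and 0.41 ± 0.13. For 11.2% of genes the 2 high-dose mice on these arrays were both above the 4 vehicle mice. The shares at the low and medium doses were not counted on these arrays, so nothing is read from those separations.

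On the low-signal slide, with groups of 1 to 3 mice, the means of Mmrn2 and Egfl7 were higher at each higher dose, at lower values. Mmrn2 was 0.52 in vehicle mouse 5, 0.53 and 0.79 in low-dose mice 6 and 10, 1.04 in both medium-dose mice, and 1.56, 1.44 and 1.76 in high-dose mice 18 to 20, with mice 5 and 6 not well above background. Egfl7 was 0.51 in the vehicle mouse, 0.92 and 0.73 in low-dose mice, 0.96 and 1.00 in medium-dose mice, and 1.19, 1.32 and 1.20 in high-dose mice. Ccm2l and Lyve1 were not well above background on any of the 8 arrays, with values from -0.05 to 0.42 and from -0.10 to 0.30, and Ushbp1 was well above background on 2 of them, those of medium-dose mouse 11 and high-dose mouse 19. No order by dose is read from this slide for these 3 genes. For Mmrn2 and Egfl7 the share of all genes with such an order on this slide was not counted, so nothing is read from theirs.

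Over all 20 liver arrays the SE was as large as or larger than the dose difference for 4 of the 5 genes. The high-dose difference was 0.01 ± 1.20 (SE) for Mmrn2, 0.32 ± 0.28 for Egfl7 and 0.10 ± 0.59 for Ccm2l. It was -0.17 ± 0.80 for Ushbp1 and 0.57 ± 0.74 for Lyve1. With median centring the Egfl7 value turned to -1.05 ± 1.3. None of the 5 passed, beside 0.00538% of genes rising over all arrays. The share of genes with every mouse above the vehicle range was 0.31%, 0.475% and 0.614% at the 3 doses, and it held for none of the 5. With the slide as a block, Mmrn2 differed by 1.54 ± 0.13, Egfl7 by 0.66 ± 0.09, Ccm2l by 0.79 ± 0.15 and Ushbp1 by 0.81 ± 0.14, and Lyve1 by 1.27. That slide held 3 of the 5 high-dose mice and 1 of the 5 vehicle mice. With the block, 0.258% of genes rose and 0.0888% fell, and without that slide 0.883% rose and 0.161% fell.

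**Figure D2:**
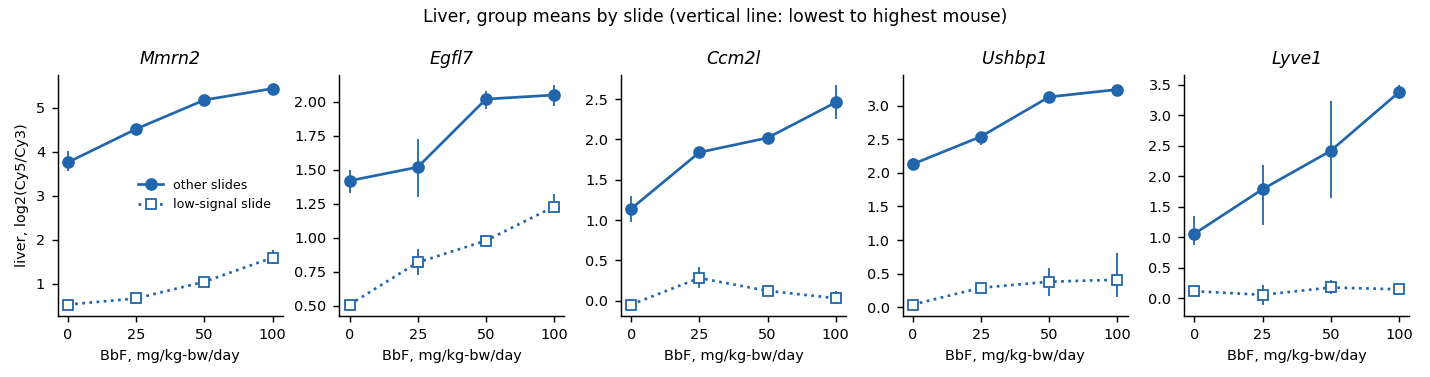
Mean log2(Cy5/Cy3) in liver (vertical axis) by BbF dose (horizontal axis, doses evenly spaced) on the low-signal slide (open squares) and the other slides (filled circles), with lines from the lowest to the highest mouse. On the other slides Mmrn2 goes from 3.76 to 5.44 and Lyve1 from 1.06 to 3.38, and on the low-signal slide Mmrn2 goes from 0.52 to 1.59.

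In forestomach, Mmrn2 alone among the 5 genes separated at the high dose. Its values were 3.33, 3.64, 3.54, 3.61 and 3.89 with vehicle, 3.76, 4.01, 3.84, 3.31 and 3.82 in low-dose mice, 4.17, 3.76, 3.82, 4.20 and 4.04 in medium-dose mice, and 4.24, 4.73, 4.55, 4.86 and 4.93 in high-dose mice. The high-dose mice lay above all other mice, and the low-dose mice overlapped with vehicle mice. The high-dose difference was 1.06 ± 0.14 (SE), 2.09-fold, and 0.96, 1.00 and 1.39 within the 3 slides. A rise past the thresholds was found for 0.0942% of genes in this contrast and a fall for 0.00807%. For 1.33% of genes the high-dose mice were all above the vehicle range, against 0.305% at the low and 0.458% at the medium dose, where this held for none of the 5.

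The other 4 genes overlapped between vehicle and high-dose forestomach. The difference was 0.07 ± 0.06 (SE) for Egfl7, -0.01 ± 0.13 for Ushbp1, 0.49 ± 0.27 for Ccm2l and 0.33 for Lyve1. Ccm2l stood out in single mice, with 2.63 and 2.61 in low-dose mice 8 and 10 and 2.50 in high-dose mouse 16, against 0.80 to 1.67 in all other forestomach samples. Its probes 2 and 3 gave high-dose differences of 0.08 ± 0.11 and 0.13 ± 0.16.

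In vehicle mice, the tissues differed in these genes. This comparison used the 15 vehicle arrays and contrasts that did not choose the genes, although those arrays were also the controls of the dose contrasts. All 5 genes were higher in lung than in liver, by 2.58 ± 0.48 (SE) for Mmrn2 (limma, adjusted p = 0.000385), 3.33 ± 0.15 for Egfl7, 4.56 ± 0.23 for Ccm2l, 2.14 ± 0.34 for Ushbp1 (adjusted p = 7.98e-05) and 5.67 ± 0.31 for Lyve1. All 5 were also higher in lung than in forestomach, by 2.10 ± 0.48 for Mmrn2 (adjusted p = 0.00286) to 4.25 ± 0.23 for Ccm2l. By the same test 23.5% of genes were higher in lung than in liver and 18.1% higher in lung than in forestomach. Fewer were lower in lung, 18.9% against liver and 16.7% against forestomach. The lung values did not overlap with those of the other tissues for any of the 5, and the share of all genes for which this held was not counted. The trait was shared by other endothelial genes. The mean over the 30 pan-endothelial genes described below was 3.75 to 4.26 in vehicle lung, 0.24 to 1.16 in liver and 0.96 to 1.17 in forestomach. Each slide held 1 tissue, and with the slide as a random block the lung minus liver difference was 2.69 ± 0.51 for Mmrn2 and 5.73 ± 0.34 for Lyve1. Without the liver array on the low-signal slide, it was smaller, at 1.93 for Mmrn2, 3.15 for Egfl7 and 4.32 for Ccm2l. It was 1.72 for Ushbp1 and 5.48 for Lyve1, and for each gene the adjusted p was 7.67e-08 or less by limma.

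Between liver and forestomach, Lyve1 differed with any 1 of the 5 vehicle mice left out. It was higher in forestomach by 2.46 ± 0.31 (SE, adjusted p = 8.62e-06 by limma). Egfl7 gave -0.48 ± 0.15 (adjusted p = 0.0169), a call lost in 4 of the 5 fits that left out 1 mouse (adjusted p up to 0.102) and with median centring (-0.22, adjusted p = 0.891). For Mmrn2 the difference was 0.49 ± 0.48 (adjusted p = 0.519), for Ccm2l 0.31 ± 0.23 (adjusted p = 0.359) and for Ushbp1 -0.20 ± 0.34 (adjusted p = 0.726). The liver array of vehicle mouse 5 lay on the low-signal slide. Without that array, Egfl7 (-0.66, limma adjusted p = 4.35e-07) and Ushbp1 (-0.62, adjusted p = 0.00473) were higher in liver. Mmrn2 then differed by -0.16 (adjusted p = 0.329) and Ccm2l by 0.07 (adjusted p = 0.783). Of all genes, 20.2% were higher in forestomach and 16% higher in liver.

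**Figure D3:**
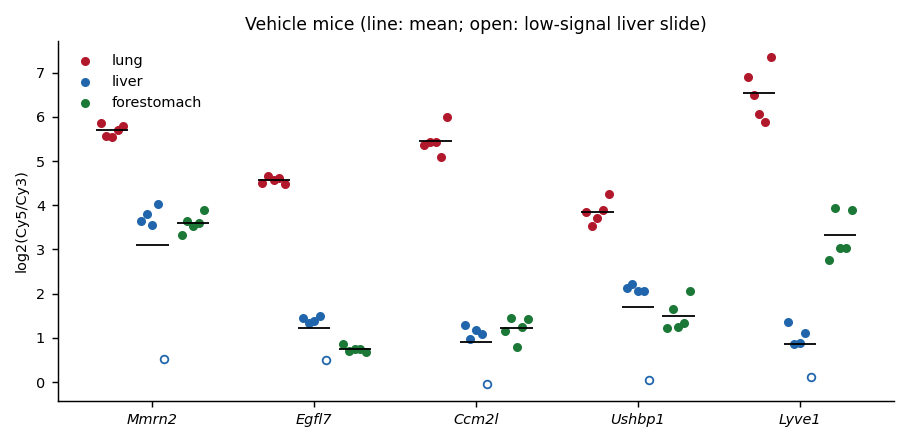
Log2(Cy5/Cy3) (vertical axis) of the 5 genes in lung, liver and forestomach of the 5 vehicle mice, with a line at each mean. Lung points lie above those of the other tissues for each gene, with means of 5.70 for Mmrn2 and 6.54 for Lyve1, and the open points are liver of mouse 5.

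The order of the 12 group means was led by lung for every gene. For Mmrn2 it ran from high through medium and low dose to vehicle in lung, then high-dose forestomach, and the neighbouring groups high and medium, and medium and low, overlapped. For Lyve1, Ccm2l and Egfl7 the lung groups followed the same order, with the high and medium means of Ccm2l only 0.01 apart. For Ushbp1 the 4 lung means, from 3.85 to 4.01, overlapped throughout. Among the lower groups, liver and forestomach groups overlapped with their neighbours for all 5 genes, except that high-dose forestomach stood apart from its medium dose for Mmrn2.

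The members were compared with other endothelial genes to see whether endothelial transcripts moved as a body in lung. Of 30 pan-endothelial genes, 6 rose and 2 fell at the high dose, beside 1.36% of all genes rising and 0.565% falling, and the median difference was 0.15, against -0.0033 over all genes. The largest rises of the list were of Emcn, a sialoglycoprotein of capillary and venous endothelium (1.81 ± 0.28 SE, limma adjusted p = 0.000456), the adhesion receptor Adgrl4 (1.58 ± 0.28, adjusted p = 0.00142) and the nitric oxide synthase Nos3 (1.25 ± 0.13, adjusted p = 4.08e-06). Pecam1 rose by 0.74 ± 0.14 (adjusted p = 0.0025) and Cdh5, the cadherin of endothelial junctions, by 0.82 ± 0.20 (adjusted p = 0.0131). Plvap, of endothelial fenestrae, fell by 0.76 and the sphingosine receptor S1pr1 fell by 0.69, but with median centring none of the 30 fell and 10 rose, and without high-dose mouse 16 none fell. The mean log2 ratio over the 30 genes was 3.75 to 4.26 in vehicle mice and 3.91 to 4.35 at the high dose, and its part in the rise of the members was not tested.

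**Figure D4:**
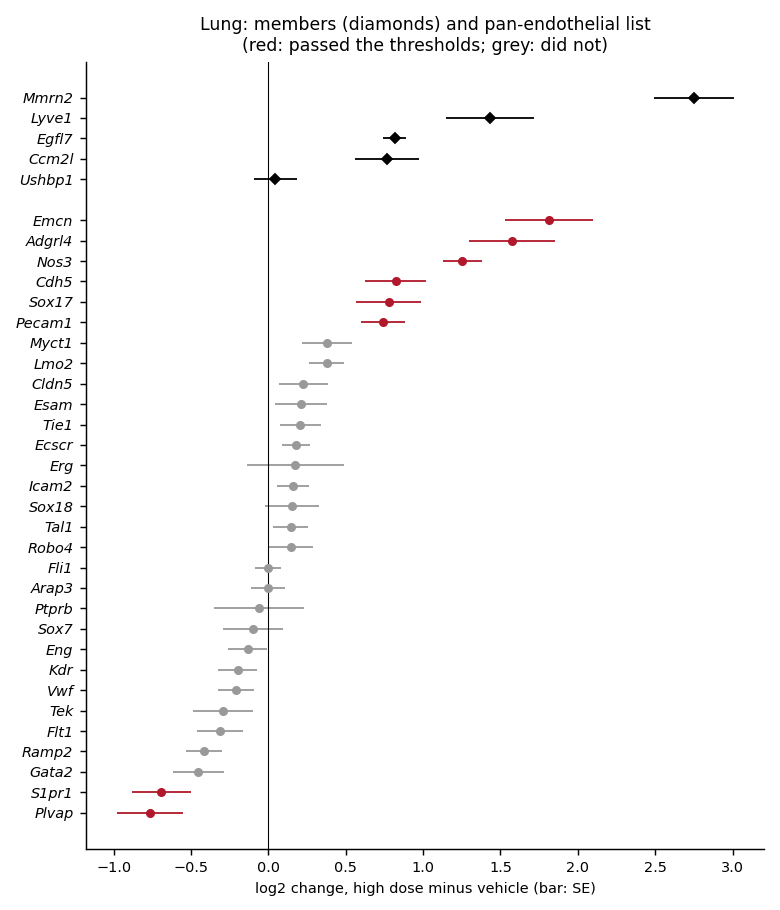
Log2 difference between high dose and vehicle in lung (horizontal axis, bars are SE) for the 5 genes (diamonds) and 30 pan-endothelial genes (circles, red where the thresholds were passed). Mmrn2 at 2.75 lies beyond all 30, Emcn leads the list at 1.81, and Plvap is lowest at -0.76.

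Genes of lung capillaries moved in both directions. Of 13 listed, Prx rose (0.60 ± 0.13 SE, limma adjusted p = 0.00593), but by less than 1.5-fold with the slide as a block (0.54), and 4 fell: Gpihbp1, which carries lipoprotein lipase across capillaries (-3.36 ± 0.34, adjusted p = 4.05e-06), the endothelin receptor Ednrb (-1.72 ± 0.24, adjusted p = 0.000156), Fibin (-1.32 ± 0.21, adjusted p = 0.000571) and the BMP receptor Bmpr2. The list's median was 0.06, with 7 of 13 above 0. Among 11 genes of sprouting vessels, Col4a2 (0.91 ± 0.12) and the netrin receptor Unc5b (0.93 ± 0.13) rose, and Esm1, a marker of tip cells, fell (-2.01 ± 0.31, adjusted p = 0.000398).

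Few partners and relatives of the 5 genes passed in lung at the high dose. None of 9 partners and relatives of Mmrn2, among them its receptors Clec14a and Cd93, passed by limma, with 2 at an unadjusted p under 0.05. Clec14a was lower in all 5 high-dose mice than in any vehicle mouse (-0.54 ± 0.13 SE, adjusted p = 0.0176), short of 1.5-fold. The share of all genes separated downward in this way was not counted. Clec14a passed with the slide as a block (-0.60, adjusted p = 0.0017), and Cd93 gave 0.16 ± 0.16 without the block. Of 11 partners, relatives and Notch genes listed for Egfl7, the Notch feedback gene Nrarp rose by 0.64 (limma adjusted p = 0.0369). With the slide as a block its rise was 0.58, under 1.5-fold. Hey1 fell by 0.95 (adjusted p = 0.011). Notch4 was higher by 0.54 (adjusted p = 0.0089), short of 1.5-fold. It passed upward at the medium dose, but not with the slide as a block. Of 15 genes of the Krit1, Ccm2 and Heg1 pathway, the transcription factor Klf4 rose by 0.92 ± 0.12 (SE, adjusted p = 0.000109), while Krit1, Ccm2 and Heg1 gave 0.17, 0.14 and 0.17. Neither of the 2 genes listed as partner or relative of Ushbp1, Ush1c and Mcc, passed at that dose, with 1 at an unadjusted p under 0.05. At the medium dose Mcc fell by 0.59 (limma adjusted p = 0.0445). Of 12 lymphatic genes Vegfc rose by 0.65, of 10 hyaluronan genes Stab2, a scavenger receptor, rose by 0.61, and of 12 sinusoidal genes Stab2 and Bmp2 (0.64) rose, Bmp2 by less than 1.5-fold with the slide as a block (0.55). None of 11 arterial and venous genes passed, with 1 at an unadjusted p under 0.05, and 1 fell with the slide as a block.

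In all, 14 of the 131 listed endothelial and pathway genes rose in lung and 8 fell, with a median of 0.02, whereas 30 rose and 4 fell with median centring, 11 rose and 11 fell with the slide as a block and 15 fell in the Cy5 channel alone, and 8 rose without high-dose mouse 20 and 9 without mouse 17. In liver none of the 131 passed in either direction over all arrays (16 at an unadjusted p under 0.05), 1 (Kit) rose with the slide as a block, beside 0.258% of genes, and 8 rose without the low-signal slide, beside 0.883% of genes. Those 8 were Adgrl4, Cd93, Cdh5, Kit, Notch4, Plxnd1, Sox18 and Tie1. In forestomach none passed, with 21 at an unadjusted p under 0.05 and a rise in 0.0942% of all genes.

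Markers of other cell types in lung gave these values beside the members. Among leukocyte genes S100a8 rose and Ncr1 fell, with the mean over the list at 0.56 to 1.45 in vehicle mice and 0.85 to 1.47 at the high dose. Of 7 platelet genes none was higher (median difference -0.49), 4 had an unadjusted p under 0.05 and Treml1 fell (2 genes with the slide as a block), with the mean at 1.46 to 2.14 in vehicle mice and 0.84 to 1.47 at the high dose. Of 10 measured markers of macrophages that carry Lyve1 none passed, with 2 at an unadjusted p under 0.05 and means of 1.01 to 1.29 in vehicle mice and 0.95 to 1.58 at the high dose. None of 11 mural, 7 fibroblast, 4 mesothelial and 6 epithelial genes passed, with 0, 2, 0 and 3 at an unadjusted p under 0.05. The mesothelial genes had a median difference of 0.71, with list means of -2.39 to 0.70 in vehicle mice and -2.14 to 0.39 at the high dose. The part of these cell types in the members' differences was not tested.

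Over the 19 lung arrays, which share slides, dose groups and normalization, Pearson's r was 0.92 for Mmrn2 and Egfl7, 0.85 for Mmrn2 and Lyve1 and 0.87 for Ccm2l and Lyve1, and pairs with Ushbp1 gave 0.15 to 0.57. After each dose group's mean was subtracted, the pairs with Egfl7 gave 0.09 (Ushbp1) to 0.44 (Mmrn2) and the other 6 pairs 0.38 (Mmrn2 and Ushbp1) to 0.75 (Ccm2l and Lyve1). Over the 12 liver arrays outside the low-signal slide r lay between 0.76 and 0.97, and between -0.46 and 0.40 after group means were subtracted.

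Genes with patterns most like the members were looked for over all 59 arrays after each tissue's mean was subtracted, among 23897 probes well above background on at least 30 arrays. For Mmrn2 they were Adgrg3 (r = 0.93), Slc2a9 (0.908) and Plxna2 (0.908), and for Egfl7 Ltc4s (0.831), Gpr146 (0.818) and 5033406O09Rik (0.817). For Ccm2l they were Adgrf5 (0.838), Myct1 (0.827) and Ppfibp2 (0.825), for Ushbp1 Robo4 (0.946), Gucy1a1 (0.942) and Adgrf5 (0.941), and for Lyve1 Kazn (0.83), Pcdh17 (0.828) and AK035112 (0.82). These values include the liver slide of low signal, and they carry the dose differences that chose the genes.

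Further searches were added once the data had been seen. With that slide left out, r over 51 arrays was highest for Mmrn2 with Reep1 (0.891), Bax (0.876) and Cdkn1a (0.871), and for Egfl7 with Tnfrsf10b (0.833), Cdkn1a (0.816) and Pkn3 (0.813). It was highest for Ccm2l with Kazn (0.67), Adgrf5 (0.652) and Cdkn1a (0.639), for Ushbp1 with AK035112 (0.768), Lmbr1l (0.757) and Adrb3 (0.717), and for Lyve1 with Ccnd1 (0.775), Ctla2a (0.771) and Kctd9 (0.767). Mmrn2 with Adgrg3 and Ushbp1 with Robo4 fell to 0.827 and 0.597. Over the 19 lung arrays alone r was highest for Mmrn2 with Cdkn1a (0.972), for Egfl7 with Aen (0.973) and for Ushbp1 with Dock3 (0.904). For Ccm2l (0.938) and Lyve1 (0.917) it was highest with a transcript without a symbol. These values carry the dose differences as well.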

How the data were processed

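Tissue RNA (Cy5) and reference RNA (Cy3) shared each Agilent SurePrint G3 Mouse array, without dye swaps. The authors deposited scanner intensities (Feature Extraction 10.7.3.1) and a table of processed log2 ratios, the latter an alternative here. Median intensities, not background-corrected, as in the methods of the study, gave log2(Cy5/Cy3) after loess within arrays (limma 3.58.1, R 4.3.3). Control and non-uniform spots were left out (484 missing values), and repeats averaged. Probes were named by accession through a RefSeq table of GRCm38.p6 (26413 probes, 20018 symbols). limma replaced the study's MAANOVA, with an adjusted p of 0.05 or less and 1.5-fold or more. The normexp alternative used median signals. The number of arrays limits the precision. Fits were tested on simulated data with independent noise and no slide effect, so those tests do not cover the low-signal liver slide. The genes and lists were chosen with earlier results of these data known. Per list and tissue, up to 3 passing genes per direction were named by the rule, besides Pecam1 and Cdh5, and 3 genes most like each member, and further genes were named after their values were seen. Mouse numbers mark 1 animal across tissues, per the labels, and median correlations of deviations between tissues were -0.03 to 0.03. The result of 1 listed gene is not reported here.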

Additional observations from a re-analysis of the deposited data

Results flagged for a closer look

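In groups of 4 or 5 mice, 96 combinations of probe and group were examined for a mouse far from the others, and chance gives about 1 in 20. Among them, 6 stood out. In low-dose lung, Mmrn2 was 6.17 in mouse 6, against 7.09 in the next mouse, and this array also held the forestomach identity genes at a mean of 4.19, whose part in the value was not tested. In vehicle liver, mouse 5 was lowest for Mmrn2 (0.52, next 3.56), Egfl7 (0.51, next 1.33), Ccm2l (-0.05, next 0.98) and Ushbp1 (0.04, next 2.06), and this array lay on the slide of low signal. In high-dose forestomach, Ccm2l was 2.50 in mouse 16, against 1.67 in the next mouse.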

How the results depend on the processing

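Without the slide of low signal the high-dose liver difference was 1.32 for Ccm2l and 2.32 for Lyve1. There, 4 pan-endothelial and 8 of all listed genes rose in liver (1 with the slide as a block). In vehicle mice forestomach minus liver became -0.16 for Mmrn2, -0.66 for Egfl7 (limma adjusted p = 4.35e-07) and -0.62 for Ushbp1 (adjusted p = 0.00473). Lung minus liver became 1.93 for Mmrn2 and 1.72 for Ushbp1. Median centring gave Egfl7 high-dose differences of 1.19 (lung), -1.05 (liver) and 0.36 (forestomach), 0.41 for Ushbp1 in lung, -0.22 for Egfl7 forestomach minus liver (adjusted p = 0.891, call lost), 10 pan-endothelial genes up and 0 down and 30 listed genes up and 4 down in lung, and 3 up in forestomach. The Cy5 channel alone gave 1.05 for Egfl7 and 0.36 for Ushbp1 in lung, and 5 pan-endothelial and 15 listed genes down, and the slide as a block 11 up and 11 down. Over all genes, 2 passed in liver, against 129 with the slide as a block and 388 without that slide, and 38 in forestomach (35 up, 3 down), against 139 up and 0 down with median centring. The second Ccm2l probe gave 0.08 in forestomach. Chosen after the data were seen, leaving out lung mouse 6 or 13 lost no call of the brightest probes of the 5 genes. Subtracting group means took the median correlation among the 5 genes in liver without that slide from 0.88 to -0.07. The cause was not tested.

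Leaving out 1 mouse at a time moved the high-dose difference of Mmrn2 to 2.63 to 2.96 (lung), -0.64 to 0.43 (liver) and 0.99 to 1.17 (forestomach). In lung, it gave 0.78 to 0.85 for Egfl7, 0.67 to 0.90 for Ccm2l, -0.03 to 0.15 for Ushbp1 and 1.27 to 1.64 for Lyve1. Forestomach minus liver in vehicle mice ran from -0.23 to 0.71 for Mmrn2, -0.65 to -0.42 for Egfl7 (call lost in 4 of 5) and -0.76 to -0.03 for Ushbp1. Pan-endothelial genes falling in lung numbered 0 to 2, and listed genes rising 8 to 14. With the mouse number as a replicate block, lung minus liver for Mmrn2 was 2.58 (adjusted p = 0.00116 by limma), and the block changed no call in the 15 tissue comparisons of the 5 genes.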
